A study of Homo sapiens with 15 samples.

Results

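The comparison described here set 6 libraries of A549 cells treated with fine particulate matter (PM2.5) of the 2 codes ending in WIN against 6 libraries treated with PM2.5 of the 2 codes ending in SUM. It used 12 of the 15 libraries of the series, chosen by their labelled treatment. The tested value for each gene was the mean of the CDWIN and CQWIN groups minus the mean of the CDSUM and CQSUM groups on the log2 scale. The sources used here do not explain the letters CD, CQ, WIN and SUM, which are kept as codes.

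A549 is an established human lung adenocarcinoma line, and the labels describe its cells as alveolar epithelial. CDWIN and CQWIN cells (3 libraries each) and CDSUM and CQSUM cells (3 libraries each) were exposed for 24 h to 100 µg/mL of their PM2.5. The other 3 libraries came from cells given an equal volume of the solvent dimethyl sulfoxide (DMSO), which are shown for level only and had no part in the test. All groups were grown in the same medium with serum. It is a single tumour line in culture, and nothing in the labels says that a group's libraries are from separate cultures. Each p-value therefore measures the spread between these libraries, which may be technical.

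Several gene programmes that recur below have well known roles. Cells make cholesterol from acetyl-CoA through the mevalonate pathway, whose enzymes are controlled together by SREBP transcription factors, which are released to the nucleus when membrane sterol is low. SREBP factors also drive genes of fatty acid synthesis and desaturation, and in alveolar epithelium lipid synthesis feeds the production of surfactant. ID proteins block the DNA binding of helix-loop-helix factors and are classical targets of bone morphogenetic protein (BMP) signalling, and AP-1 proteins such as JUNB are made early after many stimuli.

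A library held between 17583532 and 19216323 counted reads. Of 28558 genes with at least 1 read, 15229 passed the filter on low counts and were tested, and the removed genes held 0.0907% of the reads. Levels are given as CPM, the counts rescaled to a common library size by TMM (the trimmed mean of M-values), and they compare samples of 1 gene, not genes with each other. All 12 epithelial markers were above 1 CPM on average, with a summed level of 6095 to 7565 CPM in CDWIN and 6445 to 8561 CPM in CQWIN, against 7159 to 7676 CPM in CDSUM and 6990 to 7939 CPM in CQSUM. Set against the labelled alveolar cell type, 8 of the 10 alveolar type 2 markers averaged under 1 CPM, and the surfactant genes SFTPA1 and SFTPA2 had no read. Of the 12 leukocyte markers 10 averaged under 1 CPM and PTPRC, CD3D and CD3E had no read, and 11 of the 12 fibroblast and endothelial markers averaged under 1 CPM. The summed leukocyte markers were at 7.36 to 10.7 CPM in CDWIN and 9.27 to 15.8 CPM in CQWIN, against 7.997 to 10.3 CPM in CDSUM and 7.39 to 9.55 CPM in CQSUM. Those of fibroblast and endothelium were at 6.80 to 10.2 CPM in CDWIN and 4.95 to 7.12 CPM in CQWIN, against 7.14 to 8.52 CPM in CDSUM and 5.40 to 7.97 CPM in CQSUM.

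Counts followed the GC content of genes to a different degree in each library. The GC slope, in log2 units per 10 percentage points of GC, was -0.107, 0.206 and -0.156 in CDWIN libraries 1, 2 and 3, against 0.235, 0.259 and 0.275 in CDSUM. It was -0.0823, -0.178 and -0.118 in CQWIN, against -0.147, -0.0443 and -0.142 in CQSUM. These slopes are relative to the mean of the 12 libraries, so a sign does not show how a library's own counts depend on GC. All 3 CDSUM libraries and CDWIN 2 lay above that mean and the other 8 below it. The mean WIN minus SUM difference in slope was -0.145 (two-sided exact permutation test within codes over 400 arrangements, p = 0.07, adjusted p = 0.14 over 4 library measures). Total counts did not separate WIN from SUM (p = 0.91 by the same exact permutation test), and the smallest p this design allows is 0.005.

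Across the 15229 genes, 66 differed between WIN and SUM at an adjusted p under 0.05 (edgeR quasi-likelihood test with Benjamini-Hochberg adjustment), which is 0.433% of the genes tested. Of these, 62 were higher in WIN (0.407%) and 4 were lower (0.0263%). The higher genes include the cholesterol synthesis enzymes MSMO1, HMGCS1 and IDI1, the fatty acid desaturase gene SCD and the transferrin receptor gene TFRC. The lower genes were ID3, ID2, LIMD2 and JUNB. The median log2 fold change of the 62 higher genes was 0.90, and it was -0.68 over the 4 lower genes, against -0.01 over all genes tested. In bulk RNA, less RNA of a gene in every cell and fewer cells that express it cannot be told apart.

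The number of calls rested on single libraries and on the treatment of GC content. It was 0 without CDSUM 2, CDSUM 3, CDWIN 1, CDWIN 3, CQSUM 2 or CQSUM 3, 1 without CDSUM 1, 13 without CQWIN 2, 43 without CQSUM 1, 97 without CQWIN 3, 677 without CQWIN 1 and 728 without CDWIN 2. The 15 called genes chosen by rule kept their direction in all 12 of these fits, and each passed in 3 to 6 of them. No gene passed after a GC trend was removed from each library, when 1650 genes still had an unadjusted p under 0.05 by the same edgeR test, against 1959 in the comparison as described, and the lowest adjusted p among the genes chosen by rule was 0.0541. With GC and length trends removed together, 63 genes passed. DESeq2, without trend removal, called 544 genes.

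The direction was the same in both codes for 43 of the 62 higher genes (69.4%, against 54.4% of all genes tested) and for all 4 lower genes, all of which were called on the mean of the 2 differences. In the scatter of the 2 differences, most higher genes lie along the CD axis. Of the 62, 61 also passed in CDWIN minus CDSUM (5.56% of all genes tested were called higher there). SCD was the 1 that passed in CQWIN minus CQSUM. In CQ, 42 of the 62 had a log2 difference within 0.2 of zero, against 9046 of all 15229 genes.

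**Figure D1:**
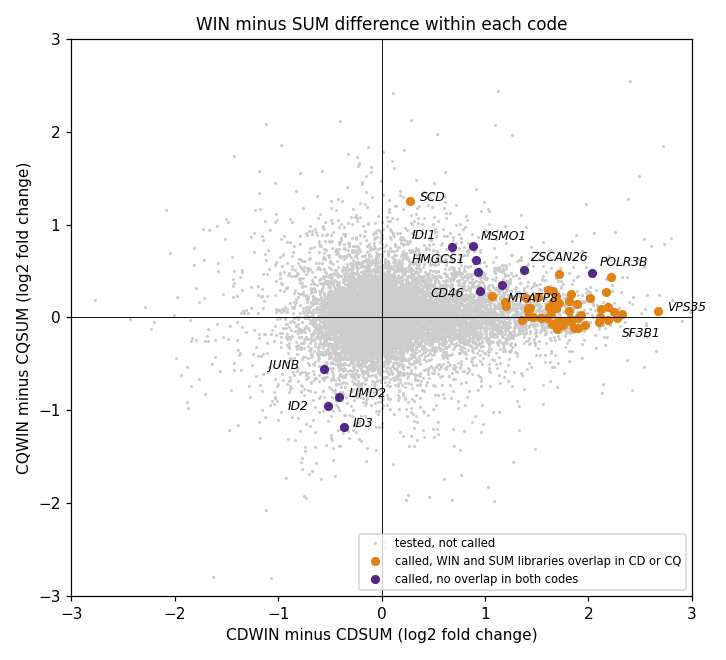
Log2 fold change of CDWIN minus CDSUM (x axis) against CQWIN minus CQSUM (y axis) for each tested gene within 3 log2 units; grey points were not called in the main effect. Purple points are the 12 called genes whose WIN and SUM libraries did not overlap in both codes, which lie in the upper right and lower left, and orange points are the other called genes, most of which lie right of 1 with a CQ value near 0.

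Of the called genes, 12 had WIN and SUM libraries that did not overlap within CD or within CQ, 8 of them higher in WIN and 4 lower. Over all genes tested, 120 had such a separation (0.788%), 41 higher (0.269%) and 79 lower (0.519%). The 8 higher genes include POLR3B, ZSCAN26, MSMO1, HMGCS1, MT-ATP8, IDI1 and CD46. The median log2 fold change of the 8 was 0.94 in CD and 0.50 in CQ. No interaction test (CDWIN minus CDSUM less CQWIN minus CQSUM) passed for any of these 12 genes.

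**Figure D2:**
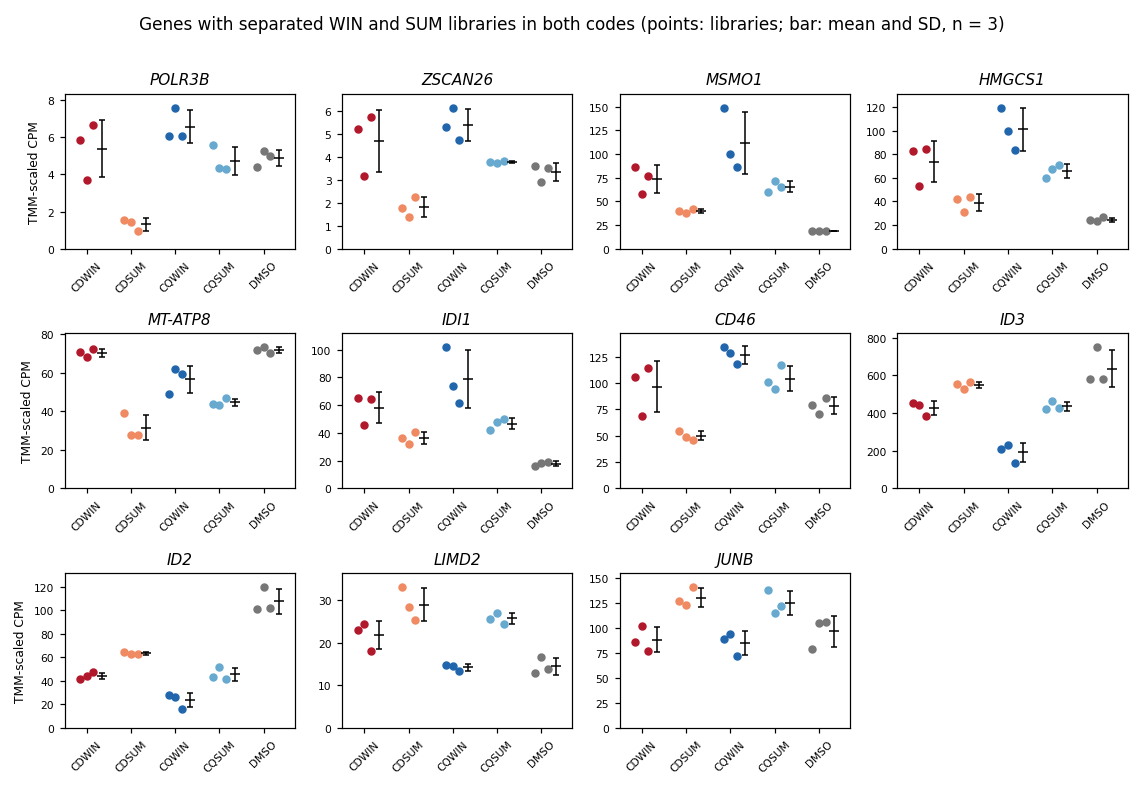
TMM-scaled CPM (y axis, from 0) of 11 called genes with no overlap between WIN and SUM libraries in both codes, by group (x axis); points are libraries and bars are the mean and SD of 3 libraries. Within each code the WIN points of the first 7 genes lie above the SUM points, and those of ID3, ID2, LIMD2 and JUNB lie below.

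Among the 31 gene lists, which held 12 of the 66 called genes, the cholesterol synthesis list had the most. The sequences before the starts of some of its called genes and of SCD are shown, with matches to motifs of known controlling factors. Windows of 250 bases before the start that RefSeq annotates (GRCh38.p14) are printed for MSMO1, HMGCS1, IDI1 and SCD, with capitals marking matches to CCAAT, the box bound by NF-Y, or to CACNCCAC, the core of a sterol regulatory element, on either strand, where the CCAAT box reads ATTGG on the reverse strand. The window of MSMO1 lies at chr4:165327419-165327668 on the plus strand, HMGCS1 at chr5:43313413-43313662 on the minus strand, IDI1 at chr10:1049120-1049369 on the minus strand and SCD at chr10:100346983-100347232 on the plus strand. Each RefSeq start lies inside the gene span of the deposited annotation, so the last 46 bases of the MSMO1 window, 100 of HMGCS1, 51 of IDI1 and 109 of SCD fall within that span.
MSMO1: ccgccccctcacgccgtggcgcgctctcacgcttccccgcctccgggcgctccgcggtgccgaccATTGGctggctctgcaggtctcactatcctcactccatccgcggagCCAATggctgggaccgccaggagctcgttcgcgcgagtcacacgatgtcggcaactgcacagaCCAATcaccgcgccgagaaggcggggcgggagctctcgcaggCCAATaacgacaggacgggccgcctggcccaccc
HMGCS1: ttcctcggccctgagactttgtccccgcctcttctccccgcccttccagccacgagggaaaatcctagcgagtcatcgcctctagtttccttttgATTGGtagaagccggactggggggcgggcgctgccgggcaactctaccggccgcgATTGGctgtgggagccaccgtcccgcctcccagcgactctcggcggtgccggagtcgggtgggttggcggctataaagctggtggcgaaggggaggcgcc
IDI1: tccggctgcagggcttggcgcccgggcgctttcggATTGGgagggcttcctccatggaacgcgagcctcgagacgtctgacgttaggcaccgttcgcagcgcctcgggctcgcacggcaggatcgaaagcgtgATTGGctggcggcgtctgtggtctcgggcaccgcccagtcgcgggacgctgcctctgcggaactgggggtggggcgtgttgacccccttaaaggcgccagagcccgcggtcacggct
SCD: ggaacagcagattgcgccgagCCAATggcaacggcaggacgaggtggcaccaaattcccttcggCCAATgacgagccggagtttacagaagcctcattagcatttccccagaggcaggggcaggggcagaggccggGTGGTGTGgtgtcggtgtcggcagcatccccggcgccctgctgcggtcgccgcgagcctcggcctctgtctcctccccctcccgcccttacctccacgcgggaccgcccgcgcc

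MSMO1 held 4 CCAAT matches and the other 3 windows held 2 each, and the SCD window held the only match to the sterol core among these 4. The SCD sterol core, 1 CCAAT match of MSMO1 and 1 of HMGCS1 lie in or reach into the deposited gene span. HMGCS1 and IDI1 have further windows, not shown, and 1 of those of IDI1 holds a match to the sterol core. CCAAT was present in 32.0% of all 35116 promoter windows and the sterol core in 4.87%. Of 18 genes of the cholesterol synthesis list with a window, 16 held CCAAT in any of their windows (88.9%) and 4 held the sterol core (22.2%); genes with several windows have more chances of a match. These matches are letters in a window, and binding was not measured.

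MSMO1 (ENSG00000052802, chr4:165327623-165343160, plus strand) encodes methylsterol monooxygenase, which removes methyl groups late in cholesterol synthesis. It had 86.7, 57.3 and 77.2 CPM in the CDWIN libraries, against 40.2, 37.8 and 41.9 CPM in CDSUM. In the other code it had 149, 100.1 and 86.5 CPM in CQWIN, against 60.1, 71.3 and 65.5 CPM in CQSUM. The lowest WIN library exceeded the highest SUM library within each code, and DMSO cells were lower than all treated libraries at 18.4, 19.0 and 18.9 CPM. The main effect was 1.77-fold (0.83 ± 0.14 on the log2 scale, SE; adjusted p = 0.0325, edgeR), with 0.88 in CD and 0.77 in CQ.

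HMGCS1 (ENSG00000112972, chr5:43289395-43313512, minus strand) encodes the cytosolic synthase that forms HMG-CoA early in the pathway. It had 82.6, 53.5 and 84.8 CPM in the CDWIN libraries, against 42.5, 30.9 and 44.0 CPM in CDSUM, and 119, 99.9 and 83.6 CPM in CQWIN, against 59.5, 67.5 and 70.8 CPM in CQSUM. Again WIN libraries were higher with no overlap in either code, with CDWIN 2 nearest to its SUM counterparts. DMSO libraries had 23.9, 23.3 and 26.7 CPM, below every treated library. The change was 1.70-fold, or 0.76 ± 0.14 on the log2 scale (adjusted p = 0.0325, edgeR).

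IDI1 (ENSG00000067064, chr10:1039152-1049170, minus strand) encodes the isomerase that interconverts the isoprenoid building blocks. It had 64.9, 45.7 and 64.2 CPM in the CDWIN libraries, against 36.3, 32.3 and 40.7 CPM in CDSUM, and 102, 73.6 and 61.3 CPM in CQWIN, against 42.0, 47.6 and 49.8 CPM in CQSUM. The groups did not overlap within either code, and the DMSO libraries were lowest at 15.8, 18.6 and 19.0 CPM. The difference was 1.65-fold, 0.72 ± 0.14 on the log2 scale (adjusted p = 0.0375, edgeR), with 0.68 in CD and 0.76 in CQ. With GC and length trends removed MSMO1 stayed called (0.62, adjusted p = 0.0422, edgeR), while HMGCS1 was at 0.52 (adjusted p = 0.0844) and IDI1 at 0.51 (adjusted p = 0.0852), and neither passed.

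All 25 genes of the cholesterol synthesis list were tested, and 24 had a positive WIN minus SUM difference, against 7378 of all 15229 genes. Their median was 0.39, with 0.18 in CD and 0.54 in CQ, against -0.01, -0.03 and -0.01 over all genes tested. In the main effect 4 passed as higher, MSMO1, HMGCS1 and IDI1 among them, against 0.407% of all genes tested. WIN libraries were higher with no overlap in either code for 8 of the 25, against 0.269% of all genes tested. At an unadjusted p under 0.05, 19 of the 25 differed in the main effect (12.9% of all genes did), 6 in CD (16.6% of all genes) and 21 in CQ (2.87% of all genes). The list median was 0.43 with GC and length trends removed, and 0.34 to 0.42 when 1 library at a time was left out. MSMO1, HMGCS1 and IDI1 had GC contents of 38.1%, 40.2% and 41.1%, and the list had a median of 50.5%, against 48.8% over all genes tested. PMVK, phosphomevalonate kinase, was the 1 member below zero, with -0.15 ± 0.13.

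The values within each code varied between sterol genes, and no interaction test of a list member passed. Members of this and later lists that are named without a call in the main effect were chosen after their values were seen. SC5D, a late sterol desaturase, had a log2 difference of 1.14 in CD and 0.37 in CQ, and STARD4, a sterol carrier, had 1.01 in CD and 0.56 in CQ. These 2 were among the 6 list genes that passed in CDWIN minus CDSUM (adjusted p = 0.0185 and 0.0289 for SC5D and STARD4, edgeR). MSMO1, HMGCS1 and IDI1 also passed there. Of all genes tested, 5.56% were called higher in CD. DHCR7, the reductase of dehydrocholesterol, averaged 91.5 CPM in CDWIN against 80.6 CPM in CDSUM, and 139 CPM in CQWIN against 78.0 CPM in CQSUM. The interaction was not called for DHCR7 (adjusted p = 0.302, edgeR). INSIG1, which retains SREBP in the endoplasmic reticulum, had -0.18 in CD and 0.60 in CQ. INSIG1 passed neither in the main effect nor in CQ.

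**Figure D3:**
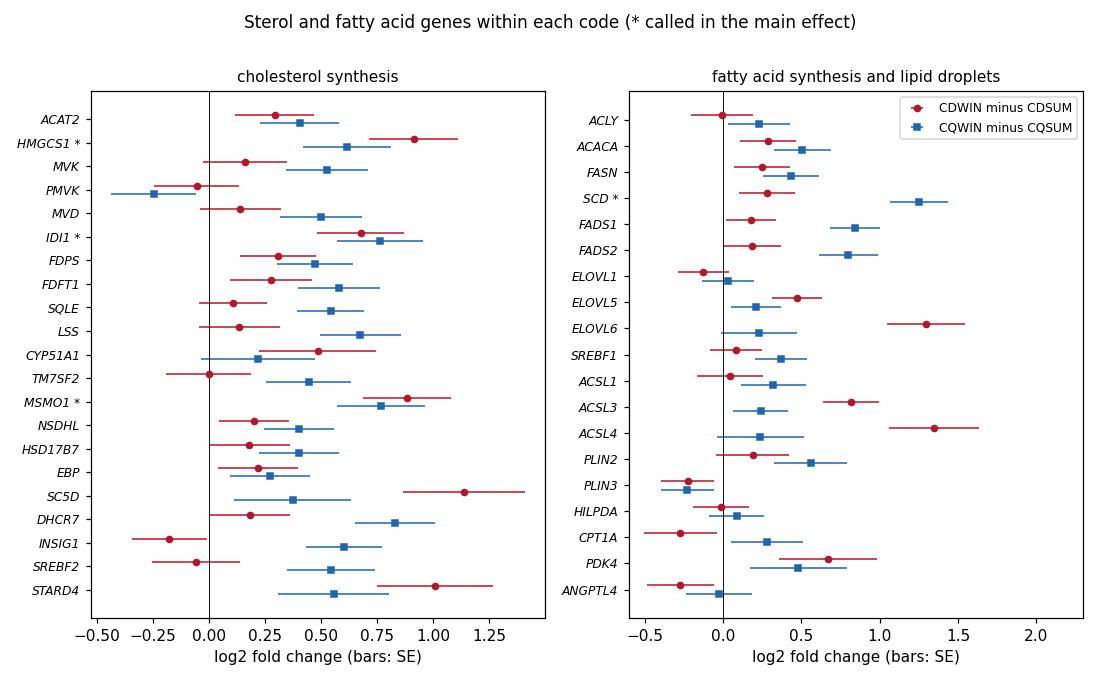
Log2 fold change with its SE (x axis) of CDWIN minus CDSUM (red circles) and CQWIN minus CQSUM (blue squares) for members of the cholesterol synthesis list (left) and the fatty acid and lipid droplet list (right), with an asterisk at MSMO1, HMGCS1, IDI1 and SCD, which were called in the main effect. Most points lie right of 0, and SCD lies farther right in CQ than in CD.

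SCD (ENSG00000099194, chr10:100347124-100364834, plus strand), stearoyl-CoA desaturase, which makes monounsaturated fatty acids, was the single gene called in CQWIN minus CQSUM. It had 369.9, 292 and 358 CPM in the CDWIN libraries, against 255, 273 and 312 CPM in CDSUM, and 735, 691 and 942 CPM in CQWIN, against 363, 274 and 358 CPM in CQSUM. The 3 CQWIN libraries were the highest of all and did not overlap CQSUM, whereas CDWIN and CDSUM libraries overlapped. DMSO libraries had 171, 148 and 179 CPM, below every treated library. The main effect was 1.70-fold (0.76 ± 0.13 on the log2 scale, adjusted p = 0.0325, edgeR), made up of 0.28 in CD and 1.25 in CQ (adjusted p = 0.0435 in CQ). The difference between the codes did not pass (interaction -0.97, adjusted p = 0.088, edgeR). One gene in CQ is 0.00657% of those tested, and the call was lost when any CDWIN, CDSUM or CQSUM library was left out; each time no gene passed in CQ, with 251 to 512 genes at an unadjusted p under 0.05, and DESeq2 on the 12 libraries called 8. In the authors' deposited table, 3 genes passed in this comparison, SCD at a log2 fold change of 1.26, FADS1 at 0.85 and ID3 at -1.18.

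Of the 19 genes of fatty acid synthesis and lipid droplets, all tested, SCD alone passed in the main effect, and 16 had a positive difference. The list median was 0.34, with 0.18 in CD and 0.28 in CQ. The desaturase genes FADS1 and FADS2 had 0.51 ± 0.11 (adjusted p = 0.0566) and 0.49 ± 0.13 (adjusted p = 0.0911, edgeR) and overlap each other on opposite strands. In CQ they differed by 0.84 and 0.80, and in CD by 0.18 and 0.18. In CD the called members were instead ELOVL6, an elongase (1.29, against 0.23 in CQ), and the acyl-CoA synthetases ACSL3 (0.82, against 0.24 in CQ) and ACSL4 (1.35, against 0.24 in CQ). These are 3 of 19, where 5.56% of all genes tested were called higher in CD. Other lists had as many there, such as 3 of 14 heat shock genes and 3 of 12 iron handling genes. FASN, fatty acid synthase, had 0.34 ± 0.13 and did not pass.

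Among the 4 lower genes, ID3 (ENSG00000117318, chr1:23557918-23559794, minus strand) had 452, 443 and 382 CPM in the CDWIN libraries, against 554, 528 and 564 CPM in CDSUM. It had 209, 232 and 134 CPM in CQWIN, against 419, 463 and 426 CPM in CQSUM, and 579.7, 749.6 and 579 CPM in DMSO. WIN libraries were lower than SUM libraries of the same code with no overlap, and the 3 CQWIN libraries were the lowest of all. ID3 fell 1.71-fold, -0.78 ± 0.13 on the log2 scale (adjusted p = 0.0325, edgeR), with -0.37 in CD and -1.18 in CQ (adjusted p = 0.0613 in CQ).

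ID2 (ENSG00000115738, chr2:8678845-8684453, plus strand) showed the same order of groups. It had 41.5, 43.9 and 47.1 CPM in the CDWIN libraries, against 64.7, 62.6 and 62.9 CPM in CDSUM, and 27.8, 26.2 and 16.5 CPM in CQWIN, against 43.3, 52.0 and 41.1 CPM in CQSUM. All treated libraries were below the DMSO libraries, which had 101, 119.8 and 102 CPM. ID2 fell 1.67-fold, -0.74 ± 0.13 on the log2 scale (adjusted p = 0.0325, edgeR), with -0.52 in CD and -0.95 in CQ, and it overlaps ID2-AS1 on the opposite strand.

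The Wnt, ID and BMP list had 18 of 22 genes tested, 2 of them called lower (ID3 and ID2) and 2 with a positive difference. Its median was -0.29, with -0.38 in CD and -0.25 in CQ. ID1, another ID gene, was at -0.32 ± 0.13 (adjusted p = 0.318, edgeR), and the BMP feedback genes SMAD6, SMAD7 and BAMBI were at -0.26, -0.31 and -0.38 without passing. DKK1, a secreted Wnt inhibitor, was at -0.44 ± 0.13.

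JUNB (ENSG00000171223, chr19:12791496-12793315, plus strand), an AP-1 subunit, had 86.4, 102 and 76.6 CPM in the CDWIN libraries, against 127, 123 and 141 CPM in CDSUM, and 89.1, 94.1 and 71.9 CPM in CQWIN, against 138, 115 and 122 CPM in CQSUM. Both SUM groups stood above both WIN groups, and the DMSO libraries at 78.5, 105 and 106 CPM overlapped the WIN level. JUNB fell 1.47-fold, -0.56 ± 0.11 on the log2 scale (adjusted p = 0.0442, edgeR), with -0.56 in CD and -0.56 in CQ. Its exons overlap HOOK2 on the opposite strand.

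None of the 18 tested immediate early genes had a positive difference, and JUNB alone passed. The median was -0.31, with -0.43 in CD and -0.18 in CQ, and -0.22 with GC and length trends removed. ATF3, a stress-induced factor, averaged 4.91 CPM in CDWIN against 11.8 CPM in CDSUM, and 3.61 CPM in CQWIN against 6.53 CPM in CQSUM (-1.06 ± 0.24, adjusted p = 0.0578, edgeR). ATF3 passed as lower in CDWIN minus CDSUM, as did JUNB. The nuclear receptor gene NR4A1 was at -0.82 ± 0.20 with no overlap within either code and an adjusted p of 0.0669 (edgeR), and FOS, EGR1 and FOSB were at -0.82, -1.01 and -1.07 with SEs of 0.34, 0.37 and 0.32.

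LIMD2 (ENSG00000136490, chr17:63695902-63701172, minus strand), a LIM domain gene, had 23.0, 24.4 and 18.1 CPM in the CDWIN libraries, against 33.2, 28.3 and 25.5 CPM in CDSUM, and 14.9, 14.5 and 13.3 CPM in CQWIN, against 25.6, 27.1 and 24.4 CPM in CQSUM. WIN libraries were lower in each code, and CQWIN libraries lay within the DMSO range, which was set by 12.8, 16.8 and 13.8 CPM. LIMD2 fell 1.55-fold, -0.63 ± 0.12 on the log2 scale (adjusted p = 0.0376, edgeR), and it overlaps MAP3K3 and AC046185.3 on the opposite strand. The 4 lower genes kept their calls with GC and length trends removed, at adjusted p values of 0.0352 for ID3, 0.0352 for ID2, 0.0439 for LIMD2 and 0.0496 for JUNB (edgeR). Their median GC content was 58.6%.

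POLR3B (ENSG00000013503, chr12:106357658-106510198, plus strand), a core subunit of RNA polymerase III, had the largest change among the 12 genes without overlap. It had 5.82, 3.68 and 6.63 CPM in the CDWIN libraries, against 1.55, 1.44 and 0.935 CPM in CDSUM, and 6.06, 7.58 and 6.04 CPM in CQWIN, against 5.56, 4.32 and 4.27 CPM in CQSUM. CDSUM libraries were the low group, and the DMSO libraries at 4.42, 5.25 and 4.98 CPM lay among the remaining groups. The main effect was 2.39-fold, 1.26 ± 0.20 on the log2 scale (adjusted p = 0.0325, edgeR), with 2.04 in CD and 0.47 in CQ.

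ZSCAN26 (ENSG00000197062, chr6:28267010-28278224, plus strand), a zinc finger gene, had 5.20, 3.15 and 5.73 CPM in the CDWIN libraries, against 1.78, 1.39 and 2.25 CPM in CDSUM, and 5.30, 6.15 and 4.73 CPM in CQWIN, against 3.79, 3.75 and 3.80 CPM in CQSUM. CDSUM was again lowest, and DMSO libraries were at 3.59, 2.90 and 3.53 CPM. It rose 1.92-fold, 0.94 ± 0.20 on the log2 scale (adjusted p = 0.0453, edgeR).

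CD46 (ENSG00000117335, chr1:207752057-207795513, plus strand), which protects cells from complement, had 106, 69.0 and 114 CPM in the CDWIN libraries, against 54.7, 49.0 and 46.3 CPM in CDSUM, and 134, 128 and 118 CPM in CQWIN, against 101, 94.4 and 117 CPM in CQSUM. In CQ the groups were close, with the lowest CQWIN library just above the highest CQSUM library, and DMSO libraries had 79.3, 70.1 and 86.1 CPM. The rise was 1.53-fold, 0.61 ± 0.13 on the log2 scale (adjusted p = 0.0453, edgeR), and it was 0.30 (adjusted p = 0.332) with GC and length trends removed.

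MT-ATP8 (ENSG00000228253, chrMT:8366-8572, plus strand), a subunit of ATP synthase encoded in the mitochondrial genome, had 70.5, 68.2 and 72.2 CPM in the CDWIN libraries, against 39.0, 27.8 and 27.4 CPM in CDSUM, and 48.6, 61.8 and 59.3 CPM in CQWIN, against 43.9, 43.2 and 46.6 CPM in CQSUM. SUM libraries were lower in both codes, and DMSO libraries at 72.0, 73.2 and 70.3 CPM lay at the CDWIN level. The rise was 1.69-fold, 0.75 ± 0.12 on the log2 scale (adjusted p = 0.0325, edgeR), and its exon overlaps MT-ATP6 on the same strand, so reads can be shared. All 13 mitochondrial protein genes had a positive difference, with a median of 0.34 (0.25 in CD and 0.35 in CQ), and MT-ATP8 alone passed. Mitochondrial genes held 5.00%, 4.26% and 5.01% of reads in CDWIN, against 3.82%, 3.74% and 3.47% in CDSUM. They held 4.34%, 5.98% and 6.56% in CQWIN, against 5.00%, 4.57% and 5.34% in CQSUM. The WIN minus SUM difference was 0.869 percentage points (two-sided exact permutation test within codes, p = 0.05, adjusted p = 0.14 over 4 measures). The 31 nuclear genes of the respiratory chain had a median of -0.11 with none called in the main effect.

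Among the higher genes CDSUM was the low group. It had the lowest mean of the 4 PM2.5 groups in 62 of the 62 higher genes, against 32.2% of all genes tested. DMSO was above CDSUM in 54 of the 62 (87.1%, against 51.6% of all genes). These genes were called for a lower SUM mean, and 61 of them passed in CDWIN minus CDSUM. Such a selection by itself favours a low CDSUM, so neither share is a separate result. The median log2 difference of the 62 was 1.69 in CD and 0.10 in CQ. Their median GC content was 41.3% against 48.8% over all genes tested, and the 3 CDSUM libraries had the most positive GC slopes. With GC and length trends removed, 44 of the 62 passed and their median was 0.70.

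TFRC (ENSG00000072274, chr3:196027183-196082189, minus strand), the transferrin receptor that brings iron into cells, had 288, 132 and 284 CPM in the CDWIN libraries, against 84.0, 70.6 and 68.7 CPM in CDSUM, and 246, 385 and 263 CPM in CQWIN, against 251, 207 and 275 CPM in CQSUM. The 3 CDSUM libraries were far below all others, CDWIN 2 lay between, and the CQ groups overlapped; DMSO libraries had 150.4, 132 and 182 CPM. The main effect was 1.96-fold, 0.97 ± 0.18 on the log2 scale (adjusted p = 0.0325, edgeR), with 1.66 in CD and 0.28 in CQ. It was the 1 called gene of 12 tested in the iron handling list, whose median was 0.04.

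SF3B1 (ENSG00000115524, chr2:197389784-197435091, minus strand), a core spliceosome subunit, had 178, 61.3 and 134 CPM in the CDWIN libraries, against 28.8, 22.7 and 25.7 CPM in CDSUM, and 111, 211 and 156 CPM in CQWIN, against 204, 104 and 174 CPM in CQSUM. In CQ the WIN and SUM libraries overlapped throughout, and in CD all 3 SUM libraries were lower, with CDWIN 2 the nearest to them. DMSO libraries had 96.1, 79.6 and 131 CPM. The main effect of 1.13 ± 0.23 (adjusted p = 0.0429, edgeR) was thus 2.27 in CD and -0.01 in CQ, and the interaction passed (2.28 ± 0.45, adjusted p = 0.0446). SF3B1 was the 1 called gene of 27 in the spliceosome list, whose median was 0.06.

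In the test of the difference between codes, 48 genes passed (0.315% of those tested). All had a larger WIN minus SUM difference in CD, which by itself favours a low CDSUM, and all were lowest in CDSUM. Of these, 25 were also among the 66 genes of the main effect. The count was 0 with the GC trend removed (1231 genes at an unadjusted p under 0.05 by the edgeR test, and 492 called by DESeq2 without it), 0 at the filter of 5 CPM in 3 libraries, and 0 when CDSUM 2, CDSUM 3, CDWIN 1, CDWIN 3, CQSUM 1, CQSUM 3 or CQWIN 3 was left out (edgeR; 1220 to 1564 at an unadjusted p under 0.05). It was 16 without CDSUM 1, 171 without CQWIN 2, 296 without CQSUM 2 and 628 without CDWIN 2. The genes next described were chosen after their values were seen. VPS35, the cargo-binding core of the retromer, had 177, 60.9 and 154 CPM in the CDWIN libraries, against 24.3, 19.0 and 18.3 CPM in CDSUM, and 133, 203 and 142 CPM in CQWIN, against 186, 103 and 167 CPM in CQSUM. CDSUM stood apart and the CQ groups overlapped, and VPS35 had the largest main effect of the called genes (1.37 ± 0.22, adjusted p = 0.0325, edgeR) with 0.07 in CQ.

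RARS, the arginyl-tRNA synthetase, had 126, 46.8 and 95.4 CPM in the CDWIN libraries, against 19.0, 17.4 and 17.4 CPM in CDSUM, and 85.6, 145 and 93.3 CPM in CQWIN, against 135, 65.9 and 114 CPM in CQSUM. Its pattern was the same, with CDSUM lowest and CDWIN 2 below CDWIN 1 and 3, for a main effect of 1.18 ± 0.22 (adjusted p = 0.0325, edgeR). LARS, the leucyl-tRNA synthetase, averaged 84.0 ± 29.5 CPM in CDWIN against 22.6 ± 4.71 CPM in CDSUM, and 101 ± 17.7 CPM in CQWIN against 101 ± 20.2 CPM in CQSUM (SD, n = 3 libraries each). MFN1, a mitochondrial fusion GTPase, averaged 19.0 ± 7.71 CPM in CDWIN against 4.01 ± 0.342 CPM in CDSUM, and 24.8 ± 7.80 CPM in CQWIN against 23.9 ± 6.97 CPM in CQSUM. In each of these genes CDSUM was the only group whose libraries all lay below those of the other 3 PM2.5 groups.

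Of 15229 genes, 874 passed in CDWIN minus CDSUM (5.74%), 847 higher (5.56%) and 27 lower (0.177%). With GC and length trends removed, 446 passed there, 331 higher and 115 lower, and with 1 library left out the count ran from 197 without CDWIN 3 to 1502 without CDWIN 2. The authors' deposited table lists 1608 genes in that comparison, 1465 higher and 143 lower. The 66 genes of the main effect had the same direction in the deposited FPKM values in 66 of 66 cases. Those values describe the same libraries as the counts, so this is not an independent check.

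**Figure D4:**
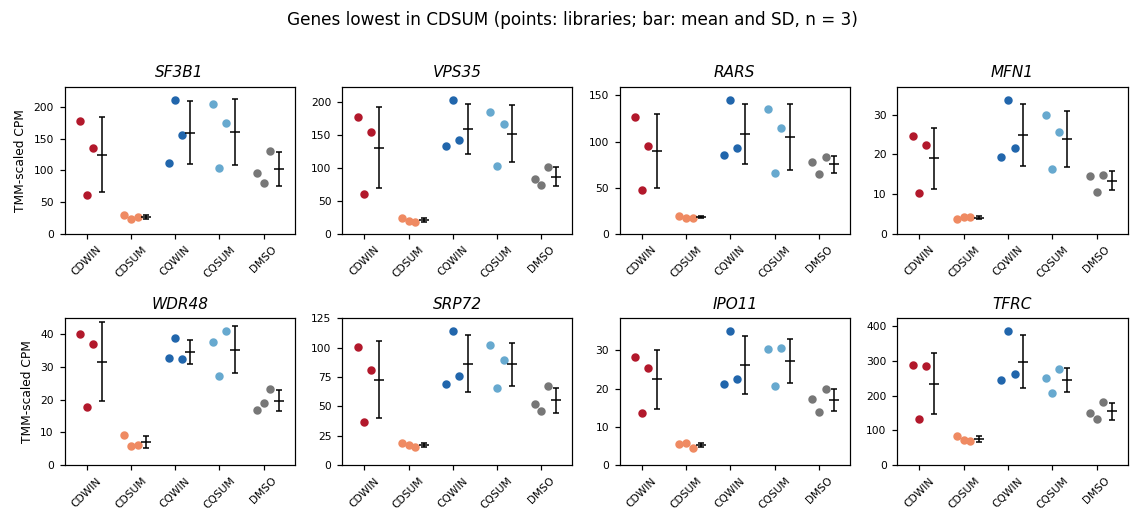
TMM-scaled CPM (y axis, from 0) by group (x axis) of SF3B1 and 6 other genes with a called interaction, and of TFRC, whose interaction was not called, the 6 chosen after their values were seen; points are libraries and bars are the mean and SD of 3 libraries. CDSUM is the lowest group in each panel, CDWIN 2 is the lowest CDWIN point, and the CQWIN and CQSUM points overlap.

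Of the 12 readout genes named whatever their result, HMGCS1, described above, was the only 1 to pass between WIN and SUM. The others, common readouts of PM2.5 exposure, did not pass. CYP1A1, the aryl hydrocarbon receptor target that metabolises polycyclic hydrocarbons, had 14.5, 10.9 and 10.3 CPM in the CDWIN libraries, against 13.4, 14.3 and 20.1 CPM in CDSUM, and 21.1, 7.48 and 18.9 CPM in CQWIN, against 11.6, 8.64 and 12.5 CPM in CQSUM. The libraries overlapped in both codes, and all lay far above the DMSO libraries (0.693, 0.468 and 0.128 CPM). Its WIN minus SUM difference was 0.06 with an approximate 95% interval of -0.36 to 0.48 (log2, 1.96 SE on each side). CYP1B1 was at 0.21 (-0.11 to 0.53), and AHRR, a repressor of the receptor that shares exon sequence with PDCD6, at 0.01 (-0.50 to 0.52). No gene of 8 tested in the aryl hydrocarbon receptor list passed, and its median was 0.03. That value averages opposite directions, with a median of -0.23 in CD (2 of 8 positive) and 0.30 in CQ (8 of 8 positive). CYP1A1 had -0.42 in CD and 0.54 in CQ, and its interaction did not pass (adjusted p = 0.413, edgeR).

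CXCL8, the neutrophil chemokine, had 754, 569 and 648 CPM in the CDWIN libraries, against 568, 641 and 812 CPM in CDSUM, and 630.0, 329 and 293 CPM in CQWIN, against 407, 569.8 and 525 CPM in CQSUM. Treated libraries overlapped between WIN and SUM and all exceeded the DMSO libraries (84.9, 96.4 and 75.4 CPM). The difference was -0.15 (-0.50 to 0.20). IL6 was at -0.30 (-0.77 to 0.18) and IL1B at 0.16 (-0.28 to 0.60). Of 25 tested inflammatory genes none passed and 4 had a positive difference, against 7378 of all 15229 genes. Their median was -0.23, and -0.24 with GC and length trends removed. At an unadjusted p under 0.05 (edgeR), 8 of the 25 differed in either direction, against 12.9% of all genes tested.

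The NRF2 targets HMOX1, heme oxygenase, and NQO1, a quinone reductase, were at -0.17 (-0.39 to 0.04) and -0.05 (-0.39 to 0.29), and none of 25 list members passed. NQO1 averaged 4409 ± 256 CPM in CDWIN and 3882 ± 1716 CPM in CQWIN, against 5034 ± 78.6 CPM in CDSUM, 3651 ± 500.3 CPM in CQSUM and 2082 ± 192 CPM in DMSO (SD, n = 3 libraries each). The metallothionein MT2A was at -0.29 (-0.57 to -0.01), the stress factor DDIT3 at -0.38 (-0.80 to 0.04) and the cell cycle inhibitor CDKN1A at -0.16 (-0.39 to 0.06), none of them called. These intervals take 1.96 SE on each side, a normal multiplier, and are narrower than the edgeR test implies. The MT2A interval thus leaves out 0 although its unadjusted p was 0.0548 (edgeR). The intervals bound the difference only approximately and do not show that the levels were equal.

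Of the 31 gene lists, with 596 genes tested, 23 had no called member. Their medians lay between -0.23 and 0.32, the upper value coming from a marker list with 2 tested genes. The mitosis list had a median of 0.21 in the main effect, 0.39 in CD and -0.11 in CQ. With GC and length trends removed these medians were 0.10, 0.28 and -0.08. In CD 5 of its 30 genes were called higher, BUB1, BUB1B, KIF11, KIF23 and NUSAP1, where 5.56% of all genes tested were. Ribosomal protein genes had a median of -0.13 with 2 of 36 positive and none called. In the plot of list medians, the sterol, fatty acid and mitochondrial lists lie right of 0 in both codes, and the immediate early and Wnt, ID and BMP lists lie left of 0 in both. The medians of these 5 lists kept their sign when any 1 library was left out and when GC and length trends were removed. This was not particular to them. The inflammatory list, at -0.25 in CD and -0.19 in CQ, also kept its sign in these fits. So did the nuclear respiratory chain, ribosomal protein and iron handling lists, among others, each with medians of 1 sign in both codes.

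**Figure D5:**
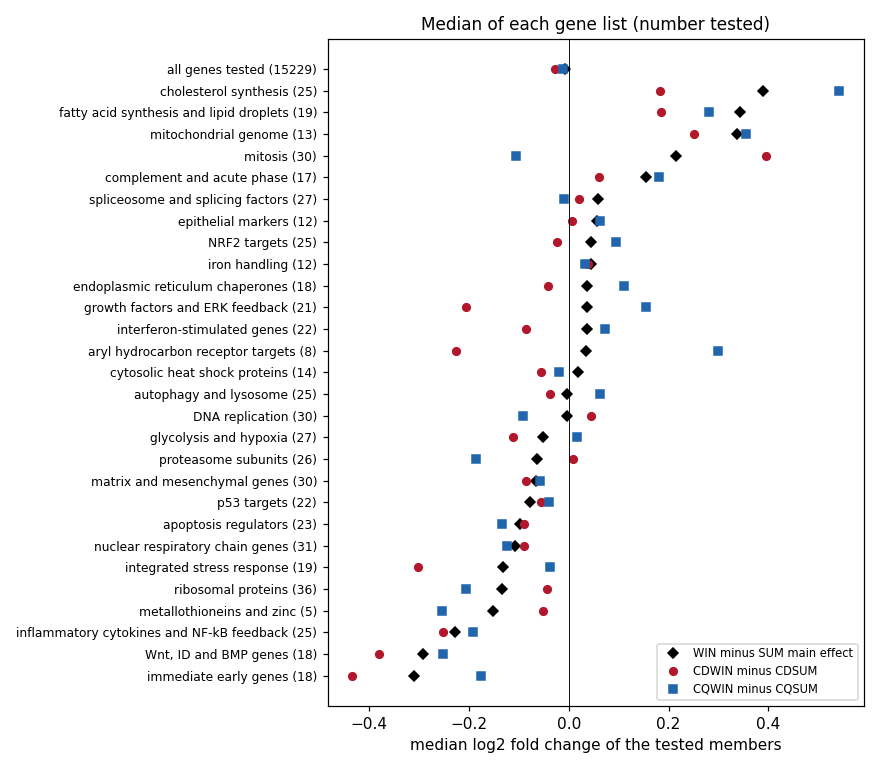
Median log2 fold change (x axis) over the tested members of each list with at least 3 tested genes (y axis, number tested in brackets) for the main effect (black diamonds), CDWIN minus CDSUM (red circles) and CQWIN minus CQSUM (blue squares). The cholesterol synthesis list has the highest main-effect median, 0.39, and the immediate early list the lowest, -0.31, against -0.01 for all genes.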

How the data were processed

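The authors deposited raw counts per gene, FPKM values, gene length in bases, and their own log2 fold changes with p-values for pairs of groups; the aligner and counting program are not given in the sources used here. Mouse genome builds and different library kits are named in the labels, but all 58735 deposited identifiers occur with the same start and end in the human GENCODE release 29, so coordinates are on GRCh38.

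The deposited counts of the 12 libraries were filtered with filterByExpr, scaled by TMM and fitted with edgeR 4.0.16 in R 4.3.3 (quasi-likelihood, 1 coefficient per group, 8 residual degrees of freedom, common biological coefficient of variation 21.7%). Calls were made at a p under 0.05 after Benjamini-Hochberg adjustment. SE was derived by dividing the size of the log2 fold change by the root of F. DMSO CPM were put on the same scale.

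Genes were named by rule: up to 12 per direction with the largest called change, protein coding, at least 5 CPM and no overlap within either code; up to 4 called members per list at 1 CPM or more; and 12 readout genes whatever their result; a few members of the cholesterol synthesis list, 1 of them chosen by the rule, enter the counts and are not reported here by name. The comparison, genes and lists were chosen with earlier results of these data known. With the tested genes held fixed except under other filters and DESeq2, calls under DESeq2 1.42.0, other filters, size factors, GC and length trends (natural splines, 6 degrees of freedom, 1 transcript per gene), a replicate block, all 15 libraries and left-out libraries were computed. The fit was tested on simulated data.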

Additional observations from a re-analysis of the deposited data

Results flagged for a closer look

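The WIN minus SUM difference was tested for a difference between CD and CQ across all genes, and 48 genes passed (edgeR quasi-likelihood test with Benjamini-Hochberg adjustment). The genes below also passed in the main effect. VPS35 had the largest difference between the codes, 2.602 on the log2 scale. The spliceosome gene SF3B1 differed by 2.28 and the tRNA synthetase genes RARS and LARS by 2.28 and 1.90. The deubiquitinase cofactor WDR48 differed by 2.21 (it overlaps GORASP1 on the opposite strand), and MFN1 by 2.19. IPO11, a nuclear import receptor that overlaps KIF2A on the same strand, differed by 2.15. SRP72, of the signal recognition particle, differed by 2.10, the RNA helicase DDX1 by 2.05 and the RNA-binding gene ZFR by 1.90. In all of them the CQ difference lay between -0.09 and 0.07 and the CDSUM libraries were the low ones. CDWIN 2, whose GC slope was 0.206, had a lower level than CDWIN 1 and CDWIN 3 in each. With GC and length trends removed, 28 of the 48 still passed. None passed with the GC trend alone removed, at 5 CPM in 3 libraries, with the replicate block, or without any 1 of 7 of the 12 libraries (edgeR; 1220 to 1570 genes at an unadjusted p under 0.05 in these fits), whereas DESeq2 called 492.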

How the results depend on the processing

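All 528 values of the 24 called genes, chosen by rule or after their values were seen, under the alternatives kept their direction, and 304 kept their call. The main effect, with 66 genes, had 171 under DESeq2 size factors, 960 with no filter on low counts, 417 with all 15 libraries, 0 with the GC trend removed, 136 with the length trend removed and 544 by DESeq2; without CDWIN replicate 2 and CQWIN replicate 3 together it had 975. Leaving out 1 library at a time gave 0 to 728: no gene without CDSUM 2, CDSUM 3, CDWIN 1, CDWIN 3, CQSUM 2 or CQSUM 3 (edgeR; 1353 to 1907 genes at an unadjusted p under 0.05), 1 without CDSUM 1, 13 without CQWIN 2, 43 without CQSUM 1, 97 without CQWIN 3, 677 without CQWIN 1 and 728 without CDWIN 2.

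CDWIN minus CDSUM, with 874 genes, had 1512 with no filter, 318 with the GC trend removed (248 higher and 70 lower), 446 with GC and length trends removed, 1892 without the 2 libraries above together, and 197 to 1502 with 1 library left out (446 without CDSUM 1, 273 without CDSUM 2, 541 without CDSUM 3, 277 without CDWIN 1, 1502 without CDWIN 2, 197 without CDWIN 3). CQWIN minus CQSUM, with 1 gene, had 31 with no filter, 0 at 5 CPM in 3 libraries (253 at an unadjusted p under 0.05), 3 with all 15 libraries, 2 with length or with both trends removed, 2 without the 2 libraries together, 8 by DESeq2 and 0 to 6 with 1 library left out. The interaction, with 48 genes, had 131 under DESeq2 size factors, 756 with no filter, 0 at 5 CPM in 3 libraries, 313 with all 15 libraries, 0 with the GC trend removed, 123 with the length trend removed, 619 without the 2 libraries together, 492 by DESeq2 and 0 to 628 with 1 library left out: none without CDSUM 2, CDSUM 3, CDWIN 1, CDWIN 3, CQSUM 1, CQSUM 3 or CQWIN 3 (edgeR; 1220 to 1564 at an unadjusted p under 0.05), 16 without CDSUM 1, 171 without CQWIN 2, 296 without CQSUM 2 and 628 without CDWIN 2. The cause of these shifts was not tested.

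Of 18 pairs of libraries with the same replicate number, 5 had a correlation of deviations over 0.1 (range -0.438 to 0.255). Pairs with different numbers were not set beside them, so whether the numbers pair the libraries was not tested. With the replicate block the main effect had 48 genes and the interaction 0 (1570 at an unadjusted p under 0.05).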
